A study of Mus musculus with 12 samples.

Results

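Mt1 and Mt2 encode the metallothioneins of most mouse tissues, Mtf1 encodes the transcription factor that switches them on, and Slc30a1 encodes the zinc exporter ZnT1 of the plasma membrane. These 4 genes were chosen by name, and all of their probesets that the platform table pairs with a single symbol were taken. Mt1, Mt2 and Mtf1 have 1 such probeset each. Both probesets that name Slc30a1 name a second gene as well, so Slc30a1 has no value here. The 3 measured genes stand among 22180 genes with a probeset of their own, and all 3 were among the 13308 genes bright enough to be tested.

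RNA of gastrocnemius, a mostly fast-twitch calf muscle, was measured on 12 Affymetrix Mouse Gene 2.0 ST arrays, each labelled as a separate biological replicate. The 4 groups of 3 arrays were wild-type mice kept sedentary, ERRα-null mice kept sedentary, wild-type mice taken 2 h after an exhausting treadmill run, and ERRα-null mice taken 2 h after such a run. All mice were FVB, labelled male and 2 to 3 months old, and the null mice lack ERRα, an orphan nuclear receptor made from Esrra that drives genes of oxidative metabolism. The labels name no promoter, Cre or cell type for the deletion. Groups follow the sample titles, descriptions and stated design, while another label, the source name, gives the opposite exercise state for the sedentary ERRα-null and the exercised wild-type arrays.

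Metallothioneins are small cysteine-rich proteins that bind zinc and copper and buffer the free zinc of the cell. Free zinc activates MTF1, which then binds metal response elements in the promoters of Mt1, Mt2 and Slc30a1, so that more metallothionein and more zinc exporter are made. The metallothionein genes also respond to glucocorticoids, to interleukin-6 and to oxidative stress, and in muscle they are known to rise with exercise and in wasting.

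The promoters of Mt1 and Mt2 are shown because these were the members that changed. The genes are neighbours on mouse chromosome 8, in the order Mt4, Mt3, Mt2 and Mt1 with 1 non-coding locus between Mt3 and Mt2. Each sequence runs 5′ to 3′ on the plus strand of GRCm38.p6 from 250 bases before to 30 bases after the start site used by RefSeq, at chr8:94178839-94179118 for Mt1 and chr8:94172368-94172647 for Mt2. Capitals mark matches to the core of the metal response element, searched on both strands as TGCACNC or TGCGCNC.
Mt1: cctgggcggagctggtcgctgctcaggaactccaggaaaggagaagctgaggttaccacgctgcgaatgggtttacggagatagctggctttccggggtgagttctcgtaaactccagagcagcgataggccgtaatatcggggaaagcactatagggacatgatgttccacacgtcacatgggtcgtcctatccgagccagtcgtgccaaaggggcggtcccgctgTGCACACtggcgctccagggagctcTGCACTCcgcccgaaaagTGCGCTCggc
Mt2: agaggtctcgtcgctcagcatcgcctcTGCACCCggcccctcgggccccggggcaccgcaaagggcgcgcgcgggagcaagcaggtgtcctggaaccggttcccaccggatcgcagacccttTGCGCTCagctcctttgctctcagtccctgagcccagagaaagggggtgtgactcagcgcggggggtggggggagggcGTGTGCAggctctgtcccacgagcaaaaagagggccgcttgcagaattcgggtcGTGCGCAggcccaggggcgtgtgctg

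Over windows of 300 bases, from 250 before to 50 after the start, Mt1 held 3 cores and Mt2 held 4, and no match overlapped another. Of 32851 RefSeq promoter windows of that length, 25.7% held at least 1 core of either form, 1.97% at least 3 and 0.517% at least 4. The Slc30a1 window held 2 cores, which 7.11% of windows reach, and the Mtf1 window held none. Of the other motifs searched on both strands, the antioxidant response element core TGACNNNGC had 1 match in the Mt2 window and 1 in the Slc30a1 window, with at least 1 in 12.4% of all windows. None of the 4 windows held the full palindromic glucocorticoid response element (0.00913% of all windows), the ERR element TCAAGGTCA (0.423%), the STAT site TTCNNNGAA (8.30%), the E-box CACGTG (7.15%) or the heat shock pair GAANNTTC (7.86%). Such matches describe letters in a window and are not measured binding sites. The windows were set by the RefSeq start, so motifs outside them or near another start site were not counted.

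The arrays as a whole behaved alike, with medians from 5.15 to 5.26 on the log2 scale and Pearson correlations over all probesets from 0.970 to 0.987 between pairs. Esrra fell in the null groups, by 0.82 at rest (adjusted p = 0.0238, limma) and by 0.78 after exercise (adjusted p = 0.0227), and its arrays did not overlap between genotypes. The call for Esrra at rest was lost with a replicate block (adjusted p = 0.0590), on only the arrays compared (adjusted p = 0.177, or 0.491 with the block), without the 3 arrays named below (adjusted p = 0.101) and without any of 5 single arrays (adjusted p from 0.0556 to 0.139). After exercise it was lost on only the arrays compared (adjusted p = 0.0638), without the 3 arrays named below (adjusted p = 0.397) and without any of 4 single arrays (adjusted p from 0.0537 to 0.0904). Skeletal muscle markers were at a list mean of 12.55 to 12.75 on every array. The X-linked Xist exceeded the Y-linked Eif2s3y on 3 arrays labelled male, exercised wild type replicate 3 and exercised ERRα-null replicates 2 and 3. Hepatocyte markers ranged widely among sedentary arrays, with Alb, the serum albumin of liver, from 6.24 to 12.82. In whole muscle, a change in the share of a cell type and a change of RNA per cell cannot be told apart.

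Mt1 and Mt2 rose after exhaustive running in both genotypes, and Mtf1 was not called in any comparison. In wild-type muscle Mt2 was 7.80-fold and Mt1 4.09-fold higher after exercise. In ERRα-null muscle Mt2 was 4.05-fold and Mt1 2.76-fold higher. Every exercised array lay above every sedentary array for both genes, whatever the genotype.

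Mt2, with the larger measured rise of the pair, was at log2 levels of 9.32, 9.50 and 9.93 in sedentary wild-type muscle. After exercise it was at 12.63, 12.36 and 12.65. The exercised arrays were close to each other and far from the sedentary ones. The log2 means were 9.58 ± 0.31 and 12.55 ± 0.16 (SD, n = 3 each). The log2 difference was 2.96 ± 0.28 (SE, 95% interval 2.35 to 3.58, adjusted p = 0.000127, limma with Benjamini-Hochberg adjustment over all genes tested).

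In ERRα-null muscle Mt2 was at 10.18, 11.19 and 9.71 at rest and at 12.28, 12.46 and 12.40 after exercise. The sedentary null arrays were spread widely, with replicate 2 the highest, and the exercised ones lay within 0.18 of each other. The log2 means were 10.36 ± 0.76 and 12.38 ± 0.09 (SD, n = 3 each). The log2 difference was 2.02 ± 0.28 (SE, 95% interval 1.40 to 2.63, adjusted p = 0.00597, limma).

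Mt1 followed the same order of groups at rest and after running. Its log2 levels in wild-type muscle were 8.67, 8.80 and 9.35 at rest and 11.02, 10.85 and 11.04 after exercise. In ERRα-null muscle they were 9.18, 9.71 and 8.85 at rest and 10.57, 10.89 and 10.67 after exercise. The highest sedentary value was again that of ERRα-null replicate 2. The log2 difference of Mt1 after exercise was 2.03 ± 0.20 in wild type (SE, 95% interval 1.59 to 2.48, adjusted p = 0.000154, limma) and 1.46 ± 0.20 in ERRα-null (SE, 95% interval 1.02 to 1.91, adjusted p = 0.00597).

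Of the 3 members tested, 2 were called higher with exercise in each genotype. Over the 13308 genes tested, 3.43% were called in wild type, 2.22% higher and 1.21% lower, and 0.639% in ERRα-null, 0.383% higher and 0.255% lower. Arrays of the 2 groups did not overlap for 21.0% of genes in wild type and 19.0% in ERRα-null, again with Mt1 and Mt2 among them. Ordered by log2 difference, Mt2 stood at place 6 and Mt1 at place 15 of all tested genes in wild type, and at places 8 and 14 in ERRα-null. The 6 exercised arrays did not overlap the 6 sedentary arrays for 4.01% of genes, Mt1 and Mt2 among them. Averaged over genotypes, the log2 difference was 2.49 ± 0.20 for Mt2 (adjusted p = 2.41e-05, limma) and 1.75 ± 0.14 for Mt1 (adjusted p = 2.57e-05), in a comparison where 6.57% of genes were called, 3.14% higher and 3.43% lower.

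Mean scores of hepatocyte, adipocyte and lymphocyte markers, which were spread more widely on sedentary than on exercised arrays, were added to the model as covariates. The difference of Mt2 was then 3.01 ± 0.55 in wild type (SE, adjusted p = 0.0524, limma) and 2.07 ± 0.50 in ERRα-null (adjusted p = 0.171). Those of Mt1 were 2.10 ± 0.41 (adjusted p = 0.0560) and 1.53 ± 0.37 (adjusted p = 0.171), so that the sizes stayed and the calls were lost. Without the 3 arrays whose sex chromosome transcripts go against their label, a single exercised ERRα-null array is left, whose spread is then taken from the other groups. The differences in ERRα-null muscle were then 1.92 for Mt2 (adjusted p = 0.454) and 1.33 for Mt1 (adjusted p = 0.463).

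**Figure D1:**
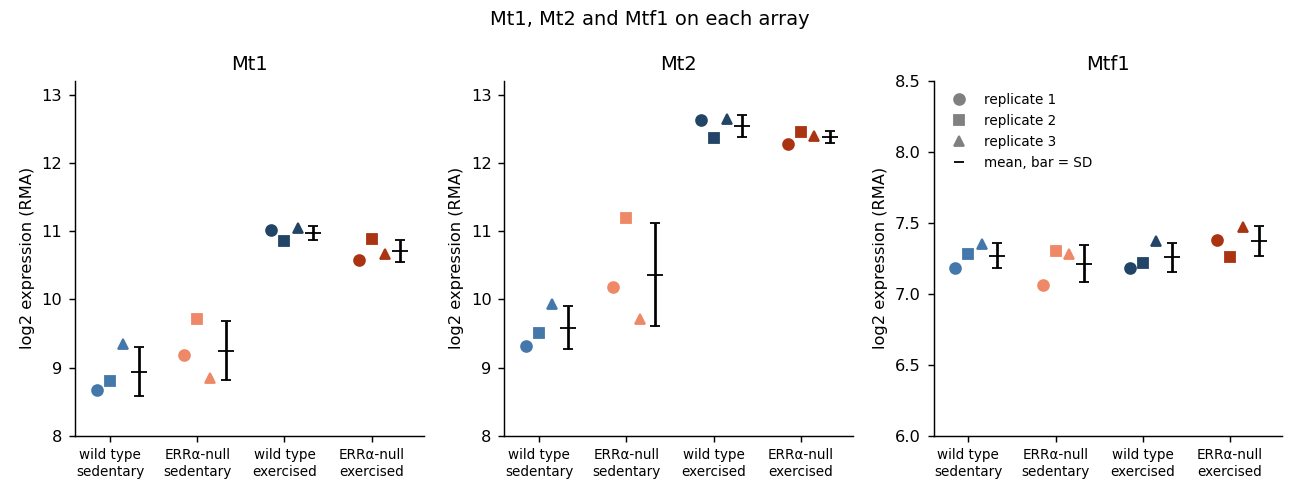
Log2 expression of Mt1, Mt2 and Mtf1 on each of the 12 arrays by group, with symbols for replicates and the mean with its SD (n = 3) beside them; the Mtf1 axis is stretched over a narrower range. For Mt1 and Mt2 all 6 exercised arrays lie above all 6 sedentary arrays, and for Mtf1 the groups overlap.

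Mtf1, the zinc-sensing activator, stayed between 7.06 and 7.47 on the log2 scale on all 12 arrays. Its values were 7.18, 7.28 and 7.35 in sedentary wild type and 7.18, 7.22 and 7.37 in exercised wild type, and 7.06, 7.30 and 7.28 in sedentary ERRα-null and 7.38, 7.26 and 7.47 in exercised ERRα-null. All 4 groups overlapped each other. Its log2 difference after exercise was -0.01 ± 0.10 in wild type (SE, 95% interval -0.22 to 0.19, adjusted p = 0.967, limma) and 0.16 ± 0.10 in ERRα-null (SE, 95% interval -0.05 to 0.36, adjusted p = 0.516). The sign in wild type turned with median centring (0.04) and with quantile normalization repeated (0.02). The genotype differences were -0.06 ± 0.10 at rest and 0.11 ± 0.10 after exercise (SE, adjusted p = 0.934 and 0.795). The intervals of all these Mtf1 differences lay within 0.36 of zero on the log2 scale, which leaves room for changes of up to 1.29-fold.

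The measured change was unequal within the metallothionein pair. The log2 value of Mt2 minus that of Mt1 was 0.66, 0.69 and 0.58 on the sedentary wild-type arrays and 1.61, 1.51 and 1.61 on the exercised ones. It ran from 0.86 to 1.48 on the sedentary ERRα-null arrays and was 1.70, 1.57 and 1.72 on the exercised ones. All 6 exercised arrays lay above all 6 sedentary arrays. Averaged over genotypes the difference grew by 0.74 with exercise (exact permutation test within genotypes, 400 arrangements, two-sided p = 0.005, the smallest they can give). The 2 values come from different probes, so that their offset at rest says nothing about which transcript is more abundant, and whether some probes match both transcripts was not tested. Whether the 2 probesets report the same fold change equally was not tested either.

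The genotypes were compared next, to ask whether the metallothionein genes depend on ERRα. The mean of Mt2 was higher in sedentary ERRα-null than in sedentary wild-type muscle, by a log2 difference of 0.78 ± 0.28 (SE, 95% interval 0.16 to 1.39), and did not pass (adjusted p = 0.473, limma). Mt1 differed by 0.31 ± 0.20 (SE, 95% interval -0.14 to 0.75, adjusted p = 0.772). The arrays of the 2 genotypes overlapped for both genes, since ERRα-null replicate 3 lay below wild type replicate 3. Without ERRα-null replicate 2, the Mt2 difference was 0.36 (adjusted p = 0.639) and the Mt1 difference was 0.08. None of the 3 members was called by limma and 1, Mt2, had an unadjusted p under 0.05. Calls were made for 0.0827% of genes, 0.0526% higher and 0.0301% lower, and 13.4% of genes showed no overlap between genotypes at rest.

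After exercise the genotypes were close. Mt2 differed by -0.17 ± 0.28 (SE, 95% interval -0.79 to 0.45, adjusted p = 0.940, limma) and Mt1 by -0.26 ± 0.20 (SE, 95% interval -0.71 to 0.19, adjusted p = 0.771). For Mt2 the highest null array (12.46) exceeded the lowest wild-type array (12.36), and for Mt1 the highest null array (10.89) exceeded the lowest wild-type array (10.85). None of the 3 members was called by limma or had an unadjusted p under 0.05. Calls were made for 0.376% of genes, 0.0902% higher and 0.286% lower, and 16.0% of genes did not overlap between genotypes.

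The order of the group means was the same for Mt1 and Mt2, rising from sedentary wild type over sedentary ERRα-null and exercised ERRα-null to exercised wild type. Only the step from sedentary to exercised muscle was past the test. The difference between the genotypes in their exercise response, ERRα-null minus wild type, was -0.95 ± 0.40 for Mt2 (SE, 95% interval -1.82 to -0.08, adjusted p = 0.950, limma). It was -0.57 ± 0.29 for Mt1 (SE, 95% interval -1.20 to 0.06, adjusted p = 0.997) and 0.17 ± 0.13 for Mtf1 (SE, adjusted p = 0.999). None of the 3 passed and 1, Mt2, had an unadjusted p under 0.05, in a comparison that called 1 gene lower (0.00751%) and none higher (0%). Without sedentary ERRα-null replicate 2 the Mt2 value was -0.53 and the Mt1 value -0.34. Averaged over both states, the genotypes differed by 0.30 ± 0.20 for Mt2, 0.02 ± 0.14 for Mt1 and 0.03 ± 0.07 for Mtf1 (SE, adjusted p = 0.618, 0.972 and 0.916), where 1.43% of genes were called, 0.428% higher and 0.999% lower. The Mt2 value was 0.10 without sedentary ERRα-null replicate 2 and 0.47 without sedentary ERRα-null replicate 3.

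**Figure D2:**
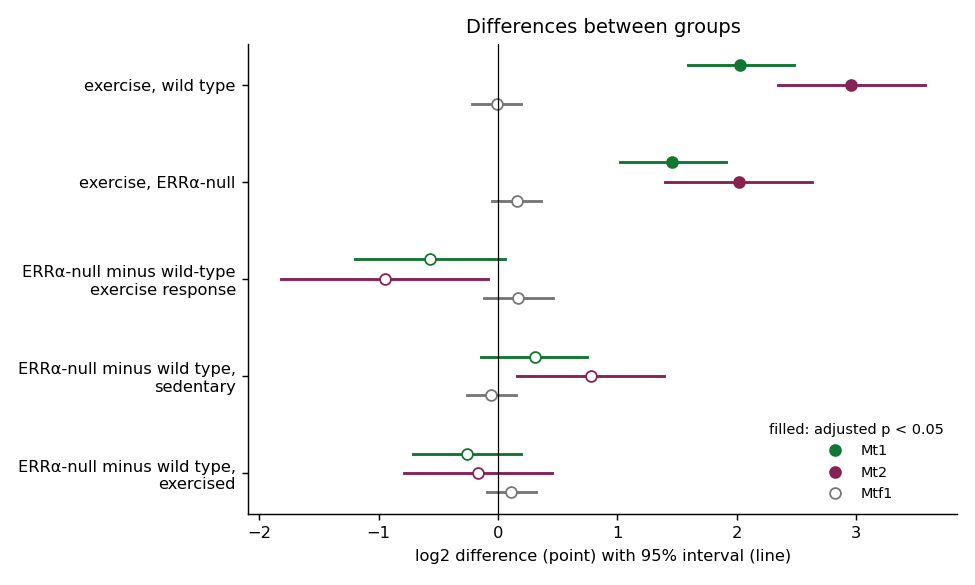
Log2 differences of Mt1, Mt2 and Mtf1 in 5 comparisons as points with 95% intervals from limma; filled points have an adjusted p under 0.05. Filled points appear for Mt1 and Mt2 in the exercise comparisons, from 1.46 to 2.96, and for no gene in the genotype comparisons or the difference of the responses.

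The other metallothioneins did not pass. Mt3, the metallothionein best known from brain, was at 5.76, 5.94 and 5.69 in sedentary and 5.95, 5.68 and 6.21 in exercised wild-type muscle. It was at 5.71, 5.49 and 5.52 in sedentary and 5.79, 5.88 and 5.88 in exercised ERRα-null muscle. Its log2 differences after exercise were 0.15 ± 0.13 in wild type and 0.28 ± 0.13 in ERRα-null (SE, adjusted p = 0.628 and 0.382, limma). Mt4, known from stratified epithelia, ran from 3.67 to 4.20 over the arrays and was too dim to be tested, since genes with a mean under 5.32 were left out.

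Among zinc transporters, the importer Slc39a10 rose in exercised wild-type muscle and no exporter was called. ZnT exporters move zinc out of the cytosol and ZIP importers bring it in. Of 10 ZnT genes 7 were tested, and none was called by limma in any of the 7 comparisons, with at most 1 at an unadjusted p under 0.05 in each. Their median log2 difference after exercise was -0.10 in wild type and -0.04 in ERRα-null, beside -0.01 over all tested genes in each. The furthest from zero was Slc30a7, an exporter into the Golgi, with -0.48 ± 0.22 and -0.36 ± 0.22 (SE, adjusted p = 0.310 and 0.510). Without single arrays these values of Slc30a7 ran from -0.56 to -0.36 and from -0.53 to -0.05, the last without sedentary ERRα-null replicate 1, and with the marker scores of other tissues they were -0.09 and -0.01.

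Of 14 ZIP genes 11 were tested. In exercised wild-type muscle 1 of them was called higher and none lower, with a median log2 difference of 0.09, and in ERRα-null muscle none was called, with a median of 0.08. Slc39a10, an importer whose transcription MTF1 is known to restrain, was at 6.72, 6.71 and 6.46 in sedentary and 7.54, 7.07 and 7.51 in exercised wild type. In ERRα-null muscle it was at 6.28, 6.71 and 6.49 at rest and at 7.03, 6.96 and 7.01 after exercise. Exercised arrays lay above all sedentary arrays in both genotypes. The log2 difference was 0.74 ± 0.14 in wild type (SE, adjusted p = 0.0130, limma), 0.51 ± 0.14 in ERRα-null (adjusted p = 0.142) and 0.62 ± 0.10 averaged over genotypes (adjusted p = 0.00300). The call in wild type was lost without sedentary replicate 3 (0.65, adjusted p = 0.0624), exercised replicate 1 (0.66, adjusted p = 0.0593) or exercised replicate 3 (0.67, adjusted p = 0.0516), on only the arrays compared (adjusted p = 0.0590, or 0.106 with a replicate block), and with the marker scores of other tissues (0.71, adjusted p = 0.212). It was also lost without the 3 arrays of contrary sex chromosome transcripts (0.67, adjusted p = 0.117). The averaged call was lost with those scores (0.60, adjusted p = 0.239) and without the 3 arrays of contrary sex chromosome transcripts (0.60, adjusted p = 0.0913).

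Slc39a14, an importer known to be induced by interleukin-6, was lower in ERRα-null muscle averaged over states. It was at 6.98, 6.77 and 6.60 in sedentary and 7.42, 7.14 and 7.09 in exercised wild type. In ERRα-null muscle it was at 6.46, 6.67 and 6.33 at rest and at 6.49, 6.69 and 6.58 after exercise. After exercise every null array lay below every wild-type array, and at rest the groups overlapped. Averaged over states the log2 difference was -0.46 ± 0.09 (SE, adjusted p = 0.0281, limma), a comparison with 0.999% of genes called lower. That call was lost without any of 7 single arrays, at values from -0.47 to -0.41 (adjusted p from 0.0597 to 0.0756), and without the 3 arrays of contrary sex chromosome transcripts (-0.54, adjusted p = 0.184). After exercise alone the difference was -0.63 ± 0.13 (SE, adjusted p = 0.0616), and it passed with the stricter filter (adjusted p = 0.0430), with robust eBayes (adjusted p = 0.0485) and with the marker scores (-0.57, adjusted p = 0.0380). The rise with exercise was 0.44 ± 0.13 in wild type and 0.10 ± 0.13 in ERRα-null, and neither passed (adjusted p = 0.0952 and 0.776). The difference between these 2 values did not pass either (-0.33 ± 0.18, adjusted p = 0.997).

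**Figure D3:**
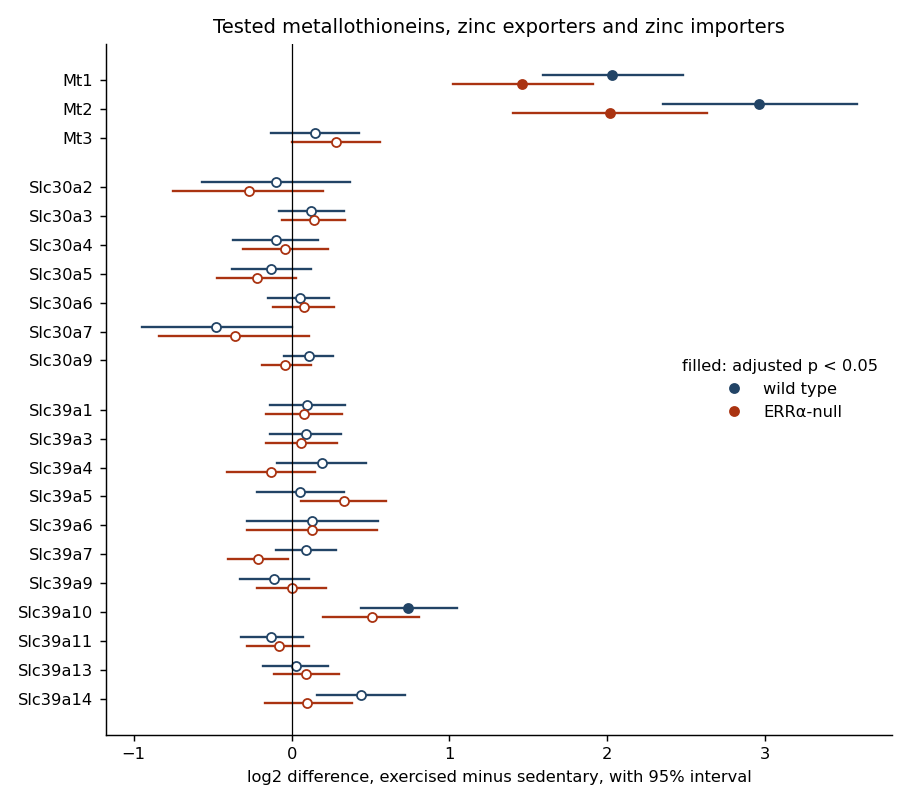
Log2 difference, exercised minus sedentary, with 95% intervals, of the 3 tested metallothioneins, 7 ZnT exporters (Slc30a genes) and 11 ZIP importers (Slc39a genes) in each genotype; filled points have an adjusted p under 0.05. Mt1 and Mt2 stand apart at 1.46 to 2.96, and Slc39a10 in wild type (0.74) is the only filled transporter.

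Further genes that MTF1 is known to act on, and those of copper handling, were counted next. Of 7 such MTF1-linked genes, Slc39a10 among them, 1 was called higher in exercised wild type, namely Slc39a10, and none in ERRα-null, with median log2 differences of 0.06 and -0.01. Their members went both ways, from -0.57 to 0.74 in wild type and from -0.41 to 0.51 in ERRα-null, with 2 and 3 of 7 at an unadjusted p under 0.05. The lowest in both was Slc40a1, the iron exporter ferroportin, at 7.13, 6.57 and 6.56 in sedentary and 6.22, 6.16 and 6.16 in exercised wild type, and from 5.74 to 6.45 in sedentary and from 5.49 to 6.02 in exercised ERRα-null. Its exercised arrays lay below the sedentary ones in wild type and overlapped them in ERRα-null. The log2 differences were -0.57 ± 0.20 and -0.41 ± 0.20 (SE, adjusted p = 0.167 and 0.407, limma), and ran from -0.67 to -0.38 and from -0.61 to -0.25 without single arrays. Of 9 tested copper genes none was called by limma for exercise in either genotype (0 and 2 at an unadjusted p under 0.05), and their log2 differences ran from -0.17 to 0.21 in wild type and from -0.31 to 0.11 in ERRα-null.

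Other stress pathways that are known to reach the metallothionein genes were counted on the same arrays. Heat shock chaperones rose most widely, with 9 of 11 tested called higher in wild type and 7 in ERRα-null, at median log2 differences of 1.04 and 0.54. Hspa1b and Hspa1a, the inducible Hsp70 genes, rose by 4.46 and 4.07 in wild type and by 2.86 and 2.32 in ERRα-null. Of 10 tested NRF2 targets, 4 were called higher in wild type and 1 in ERRα-null. Their median log2 differences were 0.24 and -0.01, and 8 and 4 of the 10 differences were positive. Srxn1, which repairs oxidised peroxiredoxins, rose by 2.04 and 1.33, and Hmox1, the heme oxygenase, rose by 1.73 in wild type and stood at 0.83 in ERRα-null (adjusted p = 0.0790, limma), or 1.08 without exercised replicate 1 (adjusted p = 0.00703). With the marker scores of other tissues, the calls in ERRα-null of Hspa1a, Hspa1b and Srxn1 were lost (adjusted p from 0.0546 to 0.0866), as was that of Hmox1 in wild type (1.86, adjusted p = 0.0643).

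Of 18 glucocorticoid targets, 5 were called higher and none lower in exercised wild type, and 1 higher and 1 lower in ERRα-null. Their median log2 differences were 0.54 and -0.03, and 15 and 9 of the 18 differences were positive. Zbtb16, a zinc finger repressor, rose by 1.44 and 1.18, and Trim63, the ubiquitin ligase MuRF1 of muscle wasting, rose by 1.89 in wild type and stood at 0.40 in ERRα-null (adjusted p = 0.557, limma). The latter value ran from 0.07 to 0.72 without single arrays, the ends being those without exercised ERRα-null replicates 2 and 1, and was -0.23 without the 3 arrays of contrary sex chromosome transcripts. The lower gene was the kinase Sgk1, which fell by 0.47 in ERRα-null (adjusted p = 0.0255), a call lost without any of 4 single arrays (adjusted p from 0.0617 to 0.138). In wild type it stood at -0.31 and was not called (adjusted p = 0.0667, limma). There it passed with the replicate block (-0.31, adjusted p = 0.0454) and with quantile normalization repeated (-0.36, adjusted p = 0.0194). It also passed there without exercised replicate 3 (-0.40, adjusted p = 0.0199). Of 11 tested genes of interleukin-6 and STAT3 signalling, 5 were called higher in wild type and 1 in ERRα-null. Median log2 differences over that pathway were 0.51 and 0.14, and 10 and 8 of the 11 differences were positive. Socs3, a feedback inhibitor of that pathway, rose by 0.99 and 1.28, and Stat3 by 0.50 in wild type. Of these genes, the call in wild type was lost for Socs3 without exercised replicate 1 (adjusted p = 0.0537). That of Stat3 was lost without sedentary replicates 1 or 3 or exercised replicates 1 or 3 (adjusted p from 0.0544 to 0.0711) and without the 3 arrays of contrary sex chromosome transcripts (adjusted p = 0.0582). With the marker scores of other tissues the calls were lost for Socs3 in wild type (adjusted p = 0.0986) and ERRα-null (adjusted p = 0.108), for Stat3 (adjusted p = 0.232) and Trim63 (adjusted p = 0.191) in wild type, and for Zbtb16 in ERRα-null (adjusted p = 0.0610). The last was also lost without the 3 arrays (adjusted p = 0.0677), and that of Sgk1 with the scores (adjusted p = 0.108), without the 3 arrays (adjusted p = 0.417) and on only the arrays compared (adjusted p = 0.0502). A replicate block on only the arrays compared ended every call in ERRα-null, and in wild type those of Socs3 (adjusted p = 0.0767) and Stat3 (adjusted p = 0.101).

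Marker lists of hepatocytes, adipocytes and lymphocytes had wider ranges on sedentary than on exercised arrays. The reverse held for macrophage and neutrophil markers, at list means of 5.91 to 6.22 at rest and 5.9 to 6.72 after exercise. It also held for endothelial (7.4 to 7.76 and 7.14 to 7.82) and erythroid markers (5.08 to 5.22 and 5.18 to 5.79). Each of these wider ranges rested on a single array, exercised wild type replicate 2. With each gene centred on the 12 arrays, it was at 0.64, -0.44 and 0.55 for these lists. The other exercised arrays ran from -0.18 to 0.03, -0.13 to 0.23 and -0.06 to 0.05. Sedentary arrays ran from -0.17 to 0.14, -0.19 to 0.17 and -0.16 to -0.02. Of 7 erythroid markers 3 were on the array. Fibroblast markers ranged about equally, from 9.0 to 9.55 and from 9.18 to 9.68. The mean of 13 hepatocyte markers ran from 5.28 to 10.23 (log2) on sedentary arrays and from 5.50 to 7.70 on exercised arrays, and none of the 12 tested was called by limma for exercise in either genotype or had an unadjusted p under 0.05. Liver is rich in metallothionein. Sedentary wild type replicate 1, with the highest hepatocyte mean (10.23) and the highest Alb (12.82), had the lowest Mt1 and Mt2 of all arrays. Sedentary ERRα-null replicate 2, where Mt1 and Mt2 were highest among sedentary arrays, had the second highest Alb (11.83). It also had the highest mean of glucocorticoid targets among sedentary arrays (0.12 when each gene is centred on the 12 arrays). This was not particular to that array. Sedentary ERRα-null replicates 1 and 3 were both at 0.02, above the sedentary wild-type arrays (-0.33 to -0.19). The means of adipocyte markers ran from 6.75 to 9.66 at rest and from 6.91 to 7.59 after exercise, and those of lymphocyte markers from 5.43 to 7.92 and from 5.25 to 5.74. Of these markers only Elovl3, a fatty acid elongase of brown fat, was called for exercise in wild type, where it fell by 2.47 (adjusted p = 0.00288, limma), and none in ERRα-null, where Elovl3 was called without sedentary wild type replicate 1 (-0.88, adjusted p = 0.0303). The part of hepatocyte, adipocyte and lymphocyte markers in the metallothionein result was not tested beyond the covariate model above. That of the glucocorticoid targets was not tested.

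**Figure D4:**
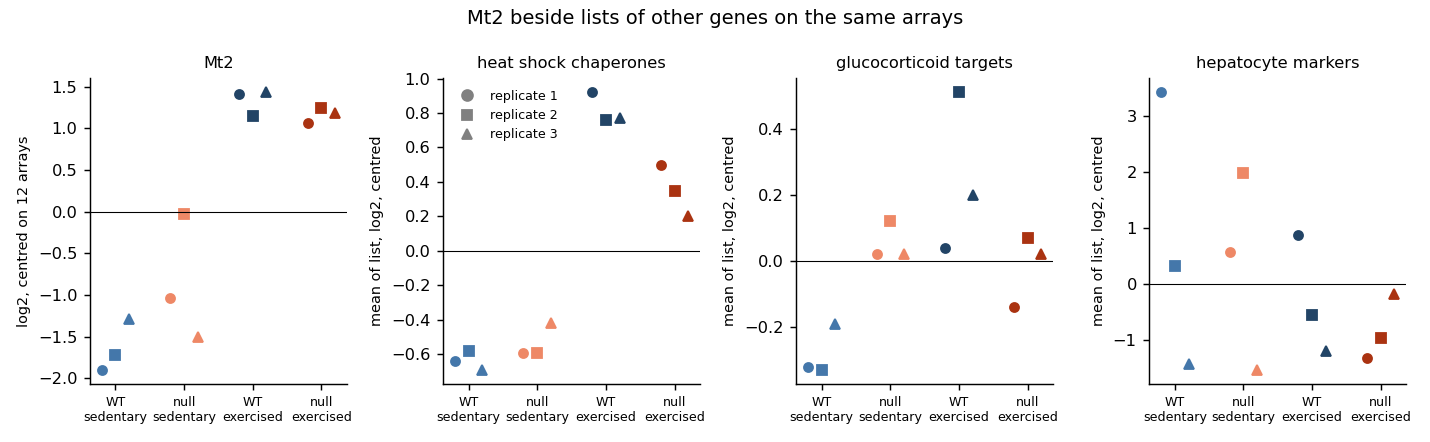
Mt2 (log2, centred on its mean over 12 arrays) beside the centred list means of heat shock chaperones, glucocorticoid targets and hepatocyte markers on the same arrays, with symbols for replicates and a separate vertical scale in each panel. Mt2 and the chaperones separate exercised from sedentary arrays over both genotypes, while the hepatocyte list overlaps between the states in each. The glucocorticoid list separates the states in wild type (-0.33 to -0.19 at rest, 0.04 to 0.51 after exercise). In ERRα-null it overlaps (0.02 to 0.12 and -0.14 to 0.07).

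Mt1 and Mt2 were each other's nearest neighbours among the 13308 tested genes, with a Pearson correlation of 0.990 over the 12 arrays. After each group's mean was removed the correlation was 0.94, so that the pair also varied together among replicates of a group. Next after Mt2, the genes most like Mt1 were Sgms1 (0.961), a sphingomyelin synthase, Alpk2 (0.957), a kinase of muscle, Nr4a3 (0.953), an orphan nuclear receptor induced by contraction, and Tinagl1 (0.953), a matrix protein. For Mt2 they were Sgms1 (0.971), Nr4a3 (0.963), Ucp3 (0.960), the uncoupling protein of muscle, and Avil (0.956). Without the group means these genes correlated with Mt1 or Mt2 at 0.20 to 0.65, so that most of the likeness came from differences between groups. Alpk2 and Nr4a3 were called higher with exercise in both genotypes, and Sgms1, Tinagl1 and Ucp3 in wild type only. Avil was called in neither (adjusted p = 0.120 and 0.268, limma). Nr4a3 was also higher in ERRα-null at rest (1.74, adjusted p = 0.0159).

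Mtf1 was unlike its targets, with correlations of 0.32 to Mt1 and 0.34 to Mt2 over the 12 arrays. The genes most like Mtf1 were Noa1 (0.927), Sbk3 (0.878), Mfsd8 (0.859), Dgcr2 (0.848) and Sirt2 (0.837), none of which was called for exercise in either genotype. Without the group means these correlations were 0.78 to 0.92. All correlations describe 12 arrays that share 4 groups and a common normalization, and the likest genes were picked from all tested genes.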

How the data were processed

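Per the submitters' processing notes, the tools were RMA, Transcriptome Analysis Console and Affymetrix Expression Console, with no versions. The table that the authors deposited holds log2 expression, a column for each array, and the sources used here name neither its options nor its build. RMA sets arrays to a common distribution, so that differences are relative to the bulk of transcripts. No read depth applies to arrays, so precision rests on how many there are.

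Of 41345 probesets, 23521 have 1 symbol in the platform table, 1814 several and 16010 none, and only those with 1 were named. Symbols of 23328 matched RefSeq's GRCm38.p6 gene table. The probeset with the highest mean stood for a gene, and the lowest 40% of genes by mean (log2 under 5.32) were not tested. Group means were fitted with limma 3.58.1 in R 4.3.3 (eBayes with trend, 8 residual degrees of freedom, two-sided) in 7 comparisons. Calls were made at an adjusted p under 0.05. The fit was tested on simulated data. Promoters were those of RefSeq, and all 4 members matched.

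Members and lists were chosen with earlier results of these data known. Named were the members, ZnT, ZIP and metallothionein genes that were called, with Slc39a10 and Slc39a14, up to 2 called genes of each other list with the smallest p, Esrra, the marker with the widest range, and the 5 genes likest each member. Mt3, Mt4, Slc30a7, Slc40a1, Xist and Eif2s3y are named beyond that rule, after their values were seen. Sgk1 is 1 of the 2 called glucocorticoid targets in ERRα-null.

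Replicate numbers are shared between groups. Deviations from group means correlated between equally numbered arrays at 0.17 to 0.31 for the exercised groups, beside -0.22 to 0.03 between unequally numbered ones. For sedentary and exercised wild type they were 0.06 to 0.27 beside -0.21 to 0.10. For the other pairs of groups, equally numbered arrays ran from -0.28 to 0.35, beside -0.56 to 0.63 between unequally numbered ones. Whether shared numbers mark a true pairing was not tested. Sex chromosome transcripts matched between genotypes for exercised replicates 1 and 3. They differed for exercised replicate 2, with Xist at 4.26 in wild type and 7.82 in ERRα-null. Between sedentary and exercised arrays they differed for wild type replicate 3 and ERRα-null replicates 2 and 3. Alternatives were other filters, other ways of joining probesets, centring and quantile normalization, limma without the trend or with robust settings, fits on only the arrays compared, the replicate block, marker scores of other tissues, and leaving out arrays.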

Additional observations from a re-analysis of the deposited data

How the results depend on the processing

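Leaving out any single array kept Mt1 and Mt2 called for exercise in wild type, in ERRα-null and on average, and no member called in the 4 other comparisons. With the hepatocyte, adipocyte and lymphocyte scores, 0 members were called for exercise in wild type, in ERRα-null or on average, in place of 2 each. For exercise in ERRα-null, 0 were called without the 3 arrays of contrary sex chromosome transcripts. With a replicate block on only the arrays compared, an alternative added after the data were seen, 0 were called there too, at the same values (adjusted p = 0.0786 for Mt1 and 0.0923 for Mt2, limma). Over all arrays the replicate block left 2 members called for exercise in each genotype (Mt2 in ERRα-null at 2.02, adjusted p = 0.0193). It changed no other member's call. Each replicate number occurs in every group, so the block cannot move a difference itself and can change only its SE and p. Single arrays, including the most extreme, moved Mt2 from 2.83 to 3.14 in wild type and from 1.69 to 2.43 in ERRα-null. Over all tested genes, the marker scores left 67 called in place of 457 for exercise in wild type, 4 in place of 85 in ERRα-null and 58 in place of 874 on average. The replicate block on only the arrays compared left 143 and 0 in the genotypes.

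Signs turned for values that were called in none of these settings. With the marker scores, Mtf1 was at -0.01 for exercise in ERRα-null, -0.10 for exercise on average and -0.03 for genotype on average. For exercise in wild type Mtf1 was at 0.04 with median centring, 0.02 with quantile normalization, and from -0.07 to 0.03 without single arrays. For genotype at rest it ran from -0.10 to 0.02. Mt1 for genotype on average was at -0.03 without the 3 arrays and from -0.09 to 0.13 without single arrays. Trim63 for exercise in ERRα-null was at -0.23 without the 3 arrays. The cause was not tested. Fits on only the arrays compared were not run for the interaction and the averages, which use all arrays.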
